A study of Rattus norvegicus with 4 samples.

Results

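The 8 genes described here are Pck1, G6pc, Igfbp1, Irs2, Insr, Foxo1, Ppargc1a and Pdk4, liver genes whose transcription responds to insulin, glucagon or fasting. They were taken by symbol from the deposited gene table and make up 9 of its 32545 rows, because the symbol G6pc stands on 2 rows, which were kept apart. Liver mRNA was sequenced in 4 rat libraries. The 2 forced activity libraries came from animals that were kept moving, and the 2 sleep restriction libraries from animals under forced activity that were also restricted in sleep, so the forced activity is common to both groups. Strain, sex, age, feeding state and hour of collection are not given in the sources used here, and nothing says whether the libraries of a group came from separate animals, so the spread between them may be technical.

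Insulin, which is high after a meal, acts in hepatocytes through its receptor and the IRS adaptor proteins on the kinase AKT, which phosphorylates the transcription factor FOXO1 and drives it out of the nucleus. Glucagon, which is high in fasting, raises cAMP, and the cAMP-dependent protein kinase then acts through CREB and its coactivators. Genes that FOXO1 and CREB activate, among them the gluconeogenic enzymes, are therefore known to be low in the fed liver and high in the fasted liver, while the genes of fatty acid synthesis run the other way.

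Igfbp1, G6pc and Pck1 are classical examples of this control at the promoter, and the 250 bases before their RefSeq start are shown because all 3 genes were highest in sleep restriction 1 and lowest in sleep restriction 2. Capitals mark the insulin response core CAAAACA, which reads as TGTTTTG where it lies on the opposite strand, or the cAMP response core TGACG, which then reads as CGTCA.
Igfbp1 (RefSeq Igfbp1, GRCr8 chr14:86261027-86261276, + strand): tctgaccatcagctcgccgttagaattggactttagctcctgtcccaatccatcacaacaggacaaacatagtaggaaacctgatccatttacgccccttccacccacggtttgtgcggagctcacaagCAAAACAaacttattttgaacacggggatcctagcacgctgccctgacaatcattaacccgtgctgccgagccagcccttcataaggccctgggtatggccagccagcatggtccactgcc
G6pc (RefSeq G6pc1, GRCr8 chr10:86807409-86807658, + strand): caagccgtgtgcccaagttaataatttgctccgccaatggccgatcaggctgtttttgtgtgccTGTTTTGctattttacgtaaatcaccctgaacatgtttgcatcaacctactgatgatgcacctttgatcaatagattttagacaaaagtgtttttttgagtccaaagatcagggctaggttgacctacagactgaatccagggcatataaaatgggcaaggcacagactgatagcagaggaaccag
Pck1 (RefSeq Pck1, GRCr8 chr3:182348322-182348571, + strand): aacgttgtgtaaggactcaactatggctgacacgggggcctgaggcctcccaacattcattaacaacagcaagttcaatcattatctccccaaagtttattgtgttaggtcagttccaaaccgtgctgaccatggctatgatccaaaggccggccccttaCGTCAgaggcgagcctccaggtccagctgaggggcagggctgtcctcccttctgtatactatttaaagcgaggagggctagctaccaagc
The insulin response core began 121 bases before the start of Igfbp1 and 186 bases before that of G6pc, and the cAMP response core began 90 bases before that of Pck1. RefSeq promoters matched 7 of the 8 genes, Irs2 being the one without an entry. On either strand, 5.46% of all 33469 RefSeq promoter windows of this length held CAAAACA, 18.2% held TGACG and 3.21% held the FOXO core GTAAACA. The window of Insr held GTAAACA and TGACG, that of Ppargc1a held TGACG on both strands in 1 overlapping stretch, and those of Foxo1 and Pdk4 held none of these letters.

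The deposited columns summed to between 508202.6 and 520275.6 estimated counts, and values below are these counts or counts per 1e6 counts (CPM), scaled by the TMM factors that edgeR estimates to make libraries comparable. Libraries are numbered as in the labels, and values given in pairs stand in the order replicate 1, replicate 2. Between 10952 and 14105 genes were above 0. The replicate 1 libraries had more (14008 and 14105) than the replicate 2 libraries (11943 and 10952). Values below 1 are included, and the columns differ in how many values are whole numbers. These number 19659 and 21691 for forced activity, and 19550 and 32544 for sleep restriction. Genes above 0 are therefore not a like measure of detection in the 4 libraries. Differences between libraries of equal number are given below, and do not mean that these libraries come from one animal or batch. All 12 hepatocyte markers looked up, Alb among them, carried counts, and their sum lay between 172854 and 188904 CPM. Pancreatic markers summed to at most 0.202 CPM, with Ins1, Ins2, Gcg and Cpa1 at 0 in every library.

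Sleep restriction 2 was the lowest library for 5 of the 7 rows tested (Pck1, G6pc, Pdk4, Igfbp1 and Irs2) and sleep restriction 1 the highest for 4 (Pck1, G6pc, Igfbp1 and Insr), while both forced activity libraries lay between them for Pck1, G6pc and Igfbp1. The corresponding shares of all genes tested were 30.9% and 19.0%. Irs2 passed the filter given below through its replicate 1 libraries, which partly sets where its lowest library falls. Pdk4 passed it through libraries other than sleep restriction 2, so the same limit holds for its lowest library. In bulk tissue, fewer cells of a type and less RNA per cell cannot be told apart. Genes entered the test if they passed a filter built on a minimum count of 10, log2 changes are of sleep restriction over forced activity and shrunken towards 0 by a prior count of 2, SE is their standard error, and p-values were adjusted by the Benjamini-Hochberg method over all 4986 genes. In edgeR's quasi-likelihood test none of the 7 rows tested passed an adjusted p of 0.05 between the groups, against 0.0201% of the 4986 genes tested, and DESeq2 and limma-voom also called 0 of the 7. At an unadjusted p under 0.05 in edgeR there were 0 of the 7, against 4.19% of all genes. The adjusted p was 0.999 for each of the 7 rows in edgeR.

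**Figure D1:**
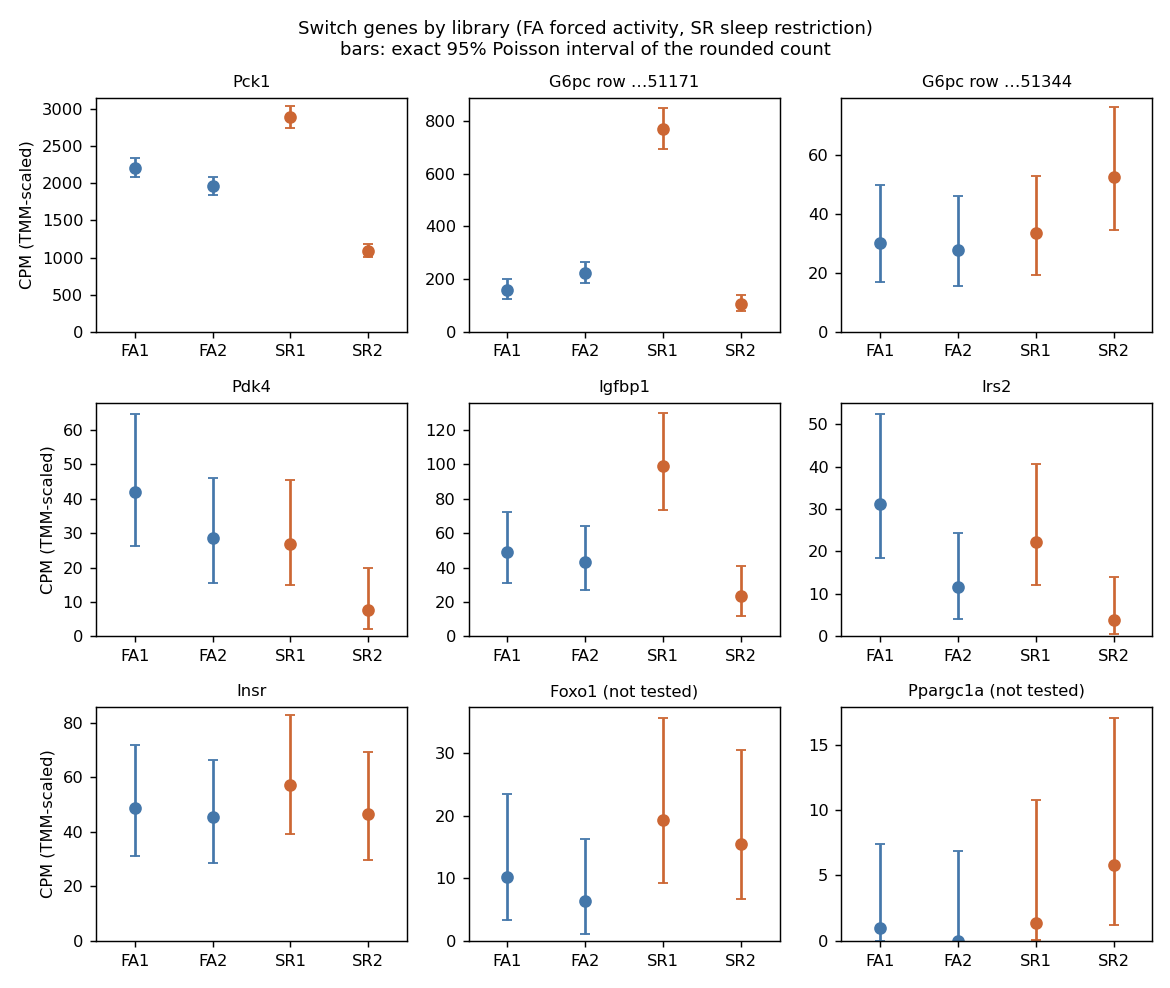
TMM-scaled CPM (y axes, each from 0) of the 9 rows in the 4 libraries (x axes; FA forced activity in blue, SR sleep restriction in orange), with bars for the exact 95% Poisson interval of the rounded count. In Pck1, the first G6pc row and Igfbp1 the bars of SR1 lie wholly above those of SR2, while those of Insr overlap in all libraries.

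Pck1 encodes the cytosolic phosphoenolpyruvate carboxykinase, which turns oxaloacetate into phosphoenolpyruvate on the way to glucose. The row (ENSRNOG00000028616.6, chr3:171213936-171219871 in rn6) held 1095.2 counts in forced activity 1, 1055.4 in forced activity 2, 1493.4 in sleep restriction 1 and 562 in sleep restriction 2. The forced activity libraries were close to each other, and the sleep restriction libraries lay on either side of them, 2.66-fold apart in CPM. Exact 95% Poisson intervals of the counts ran from 1418 to 1571 in sleep restriction 1 and from 516 to 610 in sleep restriction 2. Such intervals describe the counting of reads only, and reads amplified by PCR are not independent molecules. The group means were 2085 ± 177 CPM in the forced activity libraries, against 1993 ± 1276 CPM in those of sleep restriction (SD, n = 2 each), and the spread within sleep restriction was larger than the difference between the groups. The log2 change of sleep restriction over forced activity was -0.06 (SE 0.41), and -0.23 with limma-voom. It was 0.39 between the replicate 1 libraries and -0.84 between those of replicate 2.

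G6pc encodes the catalytic subunit of glucose-6-phosphatase, which releases free glucose from the hepatocyte. The row ENSRNOG00000051171.2 (chr10:89285855-89296213 in rn6) held 79 and 120 counts under forced activity, then 396 in sleep restriction 1 and 55 in sleep restriction 2. Sleep restriction 1 was thus the highest of the 4 libraries and sleep restriction 2 the lowest, 7.20-fold apart in CPM, with counting intervals of 358 to 437 and 41.4 to 71.6 counts. The means were 191 ± 44.9 CPM in the forced activity libraries, against 437 ± 467 CPM in those of sleep restriction (SD, n = 2 each). The log2 change was 1.18 (SE 1.04), or 0.60 with limma-voom, which works on the mean of log values. It was 2.24 between the replicate 1 libraries and -1.04 between the replicate 2 libraries, in opposite directions. Without sleep restriction 2 the log2 change was 1.98, and without sleep restriction 1 it was -0.83. In both cases a single library stood for sleep restriction, so these values describe that library rather than the group. With all 4 libraries the adjusted p of this row lay between 0.988 (edgeR, genes kept at 5 CPM in 2 libraries) and 0.99996 (DESeq2).

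The second row with the symbol G6pc, ENSRNOG00000051344.2 (chr10:89236256-89244041 in rn6), did not share this pattern. It held 15 and 15 counts in the forced activity libraries, against 17.3 and 27 in those of sleep restriction, so that the groups did not overlap and sleep restriction 2, the lowest library of the other G6pc row, was the highest here. Its log2 change was 0.50 (SE 0.29). The row lies between Becn1 and Aoc3 and spans 7786 bases. RefSeq's rat assembly GRCr8 has at that place, between the same neighbours, Psme3, a proteasome activator subunit, with a span of 7787 bases, and it lists Psme3 among the synonyms of G6pc1. The deposited table has 0 rows with the symbol Psme3. Whether this row measures glucose-6-phosphatase is therefore uncertain, and only the first row is called G6pc from here on. A further entry, Rn60_10_0892.1, overlaps both rows and held at most 2.7 counts.

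Pdk4 encodes a kinase that switches off pyruvate dehydrogenase and so spares pyruvate in fasting. The row (ENSRNOG00000009565.4, chr4:30546664-30556814 in rn6) held 20.8 and 15.4 counts in the forced activity libraries, against 13.8 and 4 in those of sleep restriction. Both sleep restriction libraries lay below both forced activity libraries, sleep restriction 1 only slightly so. The log2 change was -0.86 (SE 0.40), from 35.3 ± 9.46 to 17.3 ± 13.4 CPM (SD, n = 2 each), and it was negative in the replicate 1 libraries (-0.58) and in the replicate 2 libraries (-1.48). With any 1 library left out it stayed between -1.74 and -0.32. Counting intervals of the sleep restriction libraries overlapped, at 7.65 to 23.5 and 1.09 to 10.2 counts. Overlap alone does not settle whether the distance exceeds counting error, which was not tested.

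Igfbp1 encodes a secreted binding protein that holds insulin-like growth factors in the blood and is among the genes most directly lowered by insulin. The row (ENSRNOG00000058780.1, chr14:87448692-87453785 in rn6) held 24.4 and 23.2 counts under forced activity, 51.2 in sleep restriction 1 and 12 in sleep restriction 2. As for Pck1 and G6pc, forced activity lay between the sleep restriction libraries, which were 4.26-fold apart in CPM with counting intervals of 38.0 to 67.1 and 6.20 to 21.0 counts. The log2 change was 0.40 (SE 0.54), from 46.2 ± 4.35 to 61.3 ± 53.7 CPM (SD, n = 2 each), and 0.08 with limma-voom. It was 0.96 in the replicate 1 libraries and -0.79 in the replicate 2 libraries.

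Insr and Irs2 stand at the receiving end of insulin. Insr, the insulin receptor (ENSRNOG00000029986.6, chr12:1680957-1816414 in rn6), held 24.2 and 24.5 counts in the forced activity libraries, against 29.6 and 24 in those of sleep restriction, nearly level in the 4 libraries. Its log2 change was 0.16 (SE 0.25), and its highest library was 1.26-fold above its lowest in CPM. Irs2, the receptor's adaptor protein whose gene FOXO1 activates in fasting (ENSRNOG00000023509.6, chr16:83824430-83848684 in rn6), held 15.5 and 6.2 counts in the forced activity libraries, against 11.5 and 2 in those of sleep restriction. Its order differed from that of G6pc, since forced activity 1 was highest and both replicate 2 libraries were below both replicate 1 libraries. The log2 change was -0.53 (SE 0.58), or -0.83 with limma-voom, 0.22 without forced activity 1 and 0.10 without sleep restriction 2. Within the replicate 1 and replicate 2 libraries it was -0.43 and -0.99. Irs2 entered the test through the counts of the replicate 1 libraries, and the intervals of 6.20 to 21.0 and 0.242 to 7.22 counts in sleep restriction 1 and 2 overlap.

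Foxo1 and Ppargc1a, the factors that carry the signal to the promoters, were under the filter on low counts and were not tested. Foxo1 (ENSRNOG00000013397.5, chr2:141451234-141527016 in rn6) held 5.1 and 3.4 counts in the forced activity libraries, against 10 and 8 in those of sleep restriction. Both sleep restriction libraries were above both forced activity libraries, with a difference of mean log2 CPM of 0.82, and the counting intervals of all 4 overlap. Among all genes tested, the groups did not overlap in 32.4%. Ppargc1a, the coactivator PGC-1alpha (ENSRNOG00000004473.6, chr14:63095720-63187009 in rn6), held 0.5 and 0 counts in the forced activity libraries, against 0.7 and 3 in those of sleep restriction, all at or under the floor of 3 counts, so no fold is given. The FOXO1 messenger level does not show the activity of the protein, which insulin is known to set by phosphorylation.

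**Figure D2:**
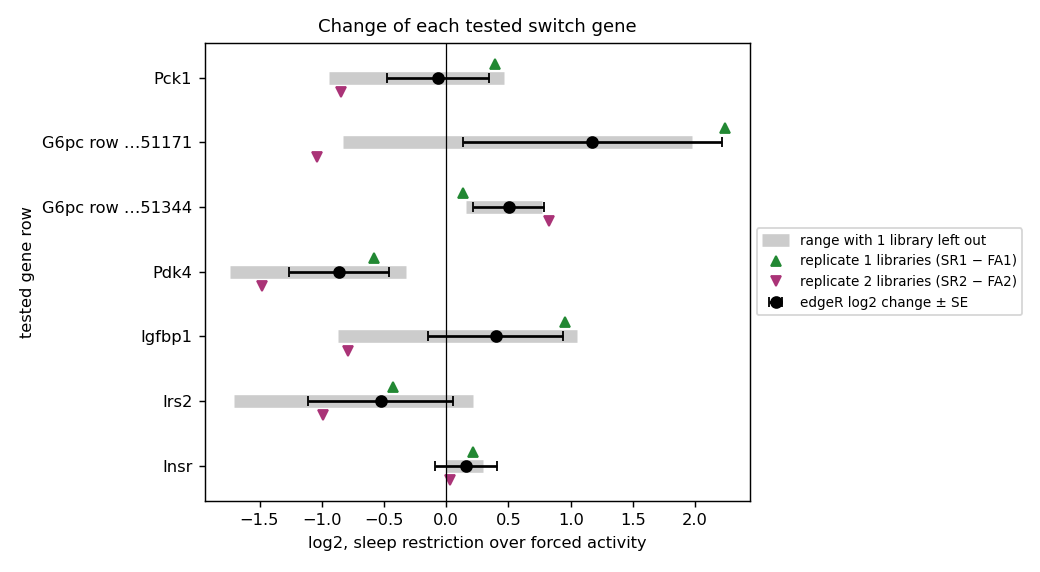
Log2 change of sleep restriction over forced activity (x axis) of the 7 tested rows (y axis): black points and bars are the edgeR value and its SE, grey bars the range with 1 library left out, and triangles the differences within the replicate 1 and replicate 2 libraries. The triangles lie on opposite sides of 0 for Pck1, the first G6pc row and Igfbp1, and both lie below 0 for Pdk4 and Irs2.

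In each of the 7 tested rows the distance between the sleep restriction libraries in log2 CPM was larger than the size of the log2 change between the groups, as it was in 64.7% of all genes tested. In sleep restriction 1, 5 of the 7 tested rows (Pck1, G6pc, Pdk4, Igfbp1 and Irs2) were at least 2-fold higher on the log2 CPM scale than in sleep restriction 2, against 2.73% of all genes tested. For Pdk4, with 4 counts in sleep restriction 2, and Irs2, with 2 counts there, the counting intervals of these libraries overlap. Those of the other 3 rows do not. Whether the distance in Pdk4 and Irs2 exceeds counting error was not tested. Between the forced activity libraries 1 of the 7, Irs2, was at least 2-fold higher in forced activity 1, against 1.58% of genes. Irs2 entered the test through the counts of the replicate 1 libraries, so its place in both counts was partly set by the filter. Pdk4, with 4 counts in sleep restriction 2, entered through its other libraries. Its place among the 5 rows was thus also partly set by the filter. The groups did not overlap in 2 of the 7 rows, Pdk4 and the second G6pc row, against 32.4% of genes. Nor did they overlap in Foxo1 and Ppargc1a, which were under the filter and not tested. These counts describe single libraries and were drawn up after the values were seen.

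Other cell types also differed among the libraries. The 11 of 12 endothelial markers in the table summed to 179 and 599 CPM under forced activity and to 533 and 301 CPM under sleep restriction, and none was at 0 in every library. The 10 macrophage markers summed to 588 and 753, then 933 and 615 CPM, highest in sleep restriction 1 as were Pck1, G6pc and Igfbp1, again with none at 0 in every library. Red cell markers, 7 of 8 in the table, summed to 887 and 1847, then 1182 and 726 CPM, and lymphocyte markers, 7 of 7, to 193 and 197, then 70.8 and 93.1 CPM. The filter on low counts was passed by 8 endothelial, 9 macrophage, 4 red cell and only 2 lymphocyte rows. The part of these cells, and of the number of genes above 0, in the values of the switch genes was not tested. The summed hepatocyte markers were 172854 and 180545 CPM in the forced activity libraries, against 179385 and 188904 CPM in those of sleep restriction. Sleep restriction 2, lowest in Pck1 and G6pc, was highest in this sum. The median of their log2 CPM, each gene centred on its mean over the 4 libraries, was highest in forced activity 1 instead. It was 0.049 and -0.057 under forced activity, against -0.002 and 0.032 under sleep restriction. Tat, 1 of the hepatocyte markers, is also among the fasting-induced genes below.

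Genes that insulin is known to raise were mostly at their highest in sleep restriction 2. Of 15 rows described for them 11 were tested and none was called in either direction in edgeR, with 3 (Acaca, Acly and Fasn) below an unadjusted p of 0.05, against 4.19% of all genes, and a median log2 change of 0.27, against 0.00 over all genes. In sleep restriction 2, 8 of the 11 were at their highest, against 32.2% of genes, and none was at its lowest. Gpam, under the filter and not tested, ran the other way at low counts. It held 5.9 and 7.5 counts in the forced activity libraries, against 15.2 and 1 in those of sleep restriction. The other untested rows held at most 1.7 counts. Acaca, Acly, Fasn and Gpam were chosen after their values were seen. Acly, which makes cytosolic acetyl-CoA for fatty acid synthesis, held 97.6 and 64 counts in the forced activity libraries, against 107.4 and 155 in those of sleep restriction. Sleep restriction 2 thus had the highest Acly together with the lowest Pck1, G6pc and Igfbp1. The log2 change of Acly was 0.67 (SE 0.28), with an adjusted p of 0.999 in edgeR.

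The 3 most abundant of the tested insulin-induced rows did not all follow the same order. Thrsp, a regulator of lipogenesis, had 755 and 457 CPM in the forced activity libraries, against 551 and 1036 CPM in those of sleep restriction. Pklr, the liver pyruvate kinase, had 253 and 146, then 158 and 305 CPM. Scd1, a fatty acid desaturase, had 422 and 49.96, then 92.5 and 341 CPM, so it was highest in forced activity 1. In forced activity 2, 9 of the 11 rows were at their lowest, against 27.4% of genes, while Pck1, G6pc and Igfbp1 lay there between the sleep restriction libraries. Scd1 was the 1 of the 11 that was at least 2-fold higher in sleep restriction 2 than in sleep restriction 1, against 0.742% of genes.

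**Figure D3:**
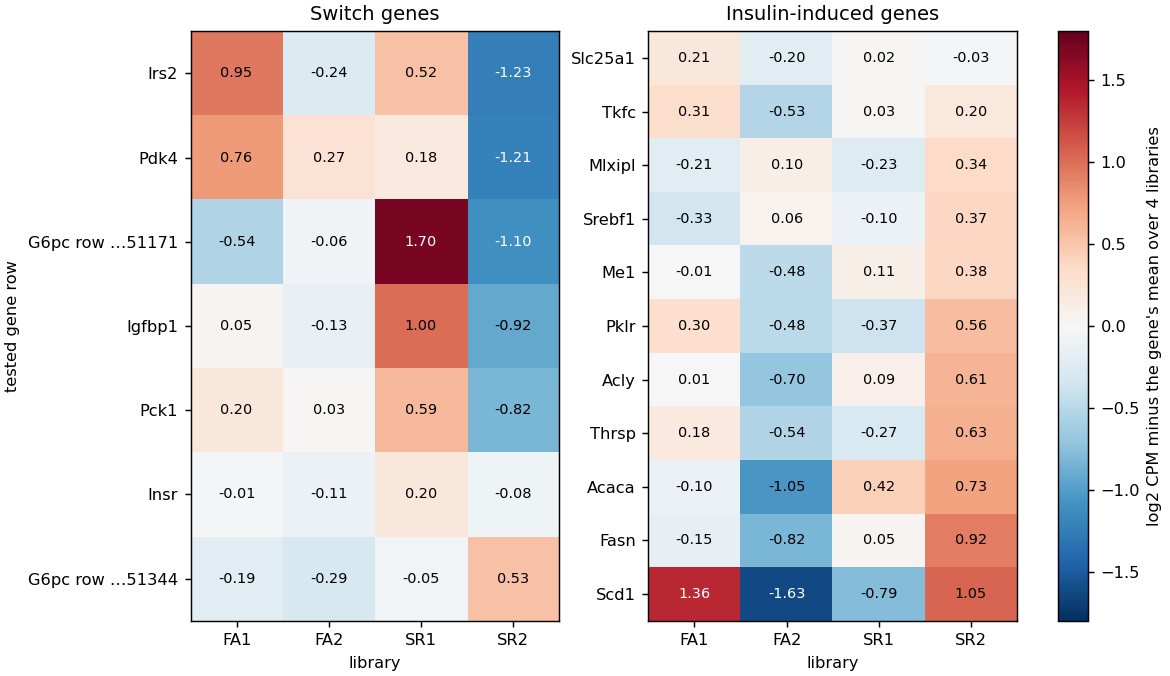
Log2 CPM minus the gene's mean over the 4 libraries (colour and printed value) for the 7 tested switch gene rows (left) and the 11 tested insulin-induced rows described (right), with libraries on the x axes and rows sorted by SR2. In SR2 the switch genes run down to -1.23 (Irs2) and the insulin-induced genes up to 1.05 (Scd1).

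Other genes known to be induced by fasting, glucagon or FOXO1 shared the order only in part. Of 23 such rows 17 were tested and none was called, with 2 (Bcl6 and Lpin1) below an unadjusted p of 0.05 in edgeR, against 4.19% of all genes, 9 changes above 0 and 8 below, and a median of 0.03. Those highest in sleep restriction 1 numbered 7 of 17, against 19.0% of all genes, and those lowest in sleep restriction 2 also 7, against 30.9%. As many, 7 of 17, were lowest in forced activity 2, against 27.4% of all genes. The most abundant of these were Apoc3, an apolipoprotein that slows triglyceride clearance, Tat, the tyrosine aminotransferase, and Fbp1, the gluconeogenic fructose bisphosphatase, with log2 changes of -0.28 (SE 0.19), 0.24 (SE 0.28) and 0.28 (SE 0.20). Bcl6, a transcriptional repressor, held 12.7 and 8.9 counts in the forced activity libraries, against 19 and 34 in those of sleep restriction, with sleep restriction 2 highest, unlike Pck1, G6pc and Igfbp1. Its log2 change was 1.14 (SE 0.34), and that of Lpin1, a phosphatidate phosphatase, was 0.89 (SE 0.34), each with an adjusted p of 0.999 in edgeR. Bcl6, Lpin1, Angptl4, Cebpb and Sds were chosen after their values were seen. Of the 17 rows, the 3 of Angptl4, Cebpb and Sds were at least 2-fold higher in sleep restriction 1 than in sleep restriction 2, against 2.73% of all genes. Angptl4, an inhibitor of lipoprotein lipase, held 34 and 17 counts in the forced activity libraries, against 43.6 and 15 in those of sleep restriction, and Cebpb, a transcription factor of gluconeogenic genes, held 27.9 and 9.7, then 23.7 and 6. Sds, the serine dehydratase that feeds gluconeogenesis, held 48.6 and 62.3, then 72.3 and 35.

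None of the tested signalling genes upstream was called. In the insulin signalling list 12 of 24 rows were tested, with 1 (Pik3r1) below an unadjusted p of 0.05 in edgeR, against 4.19% of all genes, and a median log2 change of 0.00. Akt1, the kinase, and Shc1, an adaptor, stood at 0.01 (SE 0.23) and -0.03 (SE 0.22) in log2 change, and Pik3r1, the regulatory subunit of phosphoinositide 3-kinase, stood at 0.78 (SE 0.30), with 26.2 and 25.1 counts in the forced activity libraries, against 31.4 and 59 in those of sleep restriction. Of the glucagon and cAMP list 12 of 23 rows were tested, with 1 (Prkar2a, a regulatory subunit of the cAMP-dependent kinase, chosen after its values were seen) below that p, against the same 4.19%, and a median of 0.09. Prkar2a had a log2 change of 0.81 (SE 0.27). Gcgr, the glucagon receptor, held 66.9 and 65.2 counts in the forced activity libraries, against 50.6 and 56 in those of sleep restriction, which gave a log2 change of -0.29 (SE 0.21). Crem, a cAMP-responsive factor, and the tested row of Gnas, the stimulatory G protein, had 0.17 (SE 0.26) and 0.08 (SE 0.22).

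Partners and relatives of the members were also not called. Among the genes of IGF binding 5 of 10 rows were tested, all 5 lowest in sleep restriction 2 (30.9% of all genes were), with a median log2 change of -0.12. Igfbp4, Igf1 and Igfals, the acid-labile subunit of the circulating IGF complex, had -0.21 (SE 0.20), -0.12 (SE 0.22) and -0.36 (SE 0.30). Of 10 rows for close relatives of the members 3 were tested. Slc37a4, which carries glucose-6-phosphate to the phosphatase, held 135.4 and 117.9 counts in the forced activity libraries, against 124 and 122 in those of sleep restriction, which gave a log2 change of -0.04 (SE 0.21), with its libraries closer together than those of G6pc. Pdk2 and Pdk1, kinases of pyruvate dehydrogenase like Pdk4, had 0.43 (SE 0.25) and 0.19 (SE 0.28). At an unadjusted p under 0.05 in edgeR there were 0 in either list.

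Genes most like the widest-ranging members were sought among 4785 tested genes with a proper symbol, by the Euclidean distance between log2 CPM profiles centred over the 4 libraries. Nearest to G6pc were Cyp2b1, a cytochrome P450 with close copies that can share reads, at 0.77, Nr0b2, the nuclear receptor SHP, at 0.90, and Igfbp1 itself at 0.93, against a median distance of 2.13. Nr0b2 held 13.3 and 25.7 counts in the forced activity libraries, against 73.8 and 21 in those of sleep restriction, and it was thus also highest in sleep restriction 1. Nearest to Irs2 were Ccdc80 at 0.30, Cebpb at 0.38 and Mgp at 0.52, against a median of 1.71, and each had 6 counts in sleep restriction 2. With 4 libraries and low counts these distances are descriptions only.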

How the data were processed

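Estimated counts for each Ensembl gene, in multiples of 0.1, were deposited in 1 table with symbols and genomic intervals. CASAVA, STAR 2.4.1d and build rn6 are named, per the submitters' processing notes, without their roles. Which program counted the reads was not stated there. The nearly equal column sums, the whole numbers at 32544 genes in sleep restriction 2 and words in the table's own name point to averages over draws of reads to a common depth, counted on the sense strand. This reading was not tested, and if it holds, the Poisson intervals of the other 3 libraries are wider than their counting error.

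Counts were rounded and fitted over all genes with edgeR 4.0.16 in R 4.3.3 (TMM factors, filterByExpr with minimum count 10, robust quasi-likelihood test, group as the only term, Benjamini-Hochberg adjustment), and called at an adjusted p under 0.05. The script was tested on simulated data. Log2 changes are shrunken by a prior count of 2, which log2 CPM values share. SE is the size of that change over the square root of F. Alternatives used DESeq2 1.42.0, limma 3.58.1 (voom), other factors, filters and prior counts, a replicate block, and each library left out. Members and lists were chosen with earlier results of these data known. Named genes are the members, the 3 most abundant tested genes and any called gene of each list, and the 3 nearest profiles of the 2 widest-ranging members. Other genes are said to have been chosen after their values were seen, apart from marker genes and the neighbours of G6pc. Promoters are from RefSeq GRCr8. Some members of the gene lists are not reported here and were left out of the lists' counts.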

Additional observations from a re-analysis of the deposited data

How the results depend on the processing

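Of 15 alternatives, 14 left the count of called switch gene rows at 0, and it ran from 0 to 1 with 1 library left out, the 1 being G6pc without sleep restriction 2. The count over all genes was 1 (lower), 2 with DESeq2, 5 without a gene filter (1 higher, 4 lower), 0 without robust estimation (209 genes at an unadjusted p under 0.05 in the robust fit), 5 with a replicate block (all lower) and 0 to 2 with 1 library left out (a group of 1 library takes its spread from the other group). The cause was not tested. With 1 library left out, log2 changes ran from -0.83 to 1.98 for G6pc, -0.87 to 1.05 for Igfbp1, -0.0033 to 0.30 for Insr, -1.70 to 0.22 for Irs2, -0.94 to 0.47 for Pck1, -1.74 to -0.32 for Pdk4 and 0.16 to 0.77 for the second G6pc row. No other setting turned a direction in these 7 rows. The count of 5 rows at least 2-fold higher in sleep restriction 1 than in sleep restriction 2 was also 5 with prior counts of 0.5 and 5, with median-of-ratios factors and without scaling, settings chosen after seeing the data, as were values not rounded.

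No label ties equal replicate numbers to one animal or batch, so the replicate number was not a term of the test reported. Across the tested genes, deviations from the group means correlated at 0.206 between libraries of equal number. With 2 libraries in a group these deviations are exact opposites, so both pairs give the same single value. That value does not decide whether these libraries share a batch. With the replicate block the log2 change was 0.73 for G6pc, 0.37 for Igfbp1, -0.22 for Pck1 and -0.88 for Pdk4. No switch gene row was called with it. Depth limits Foxo1, Ppargc1a, Irs2 and Pdk4, with 10 or fewer counts in 1 or more libraries.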
